A study of Mus musculus with 12 samples.

Results

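The collagen gene family was followed in hind limb muscle of mice with and without αB-crystallin (Cryab) and HspB2 (Hspb2), 2 small heat shock proteins encoded by neighbouring genes. Its members were taken by name, as every single-gene row whose symbol is Col, a number, a and a number, which gave 43 genes among the 22923 symbols listed in each library. The naming rule reads symbols only, but the members were chosen with earlier results of these data known. The study asked how loss of both proteins and a diet rich in fat bear on the muscle transcriptome, and the 12 libraries were made from proximal hind limb muscle of male FVB mice (FVB/N in the study's methods) at 22 weeks of age. The groups carry the titles Flox-control (wild type, WT, on normal chow), Flox-highfat (WT on high fat diet), KO-control (both genes knocked out, on normal chow) and KO-highfat (both genes knocked out, on high fat diet), with 3 mice each, and the study names the WT mice as littermates. The KO mice were bred from heterozygotes and lack both genes in every tissue, so the effect of 1 gene cannot be told apart from that of the other. The labels do not say what Flox stands for. Values are FPKM, fragments scaled by transcript length and by a factor for each library, so levels of different genes can be compared per length.

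Collagens are secreted proteins of 3 chains wound into a triple helix. In muscle, types I, III and V form the fibrils of the connective tissue sheaths, type VI forms beaded filaments that tie the fibre surface to those sheaths, and type IV, with XV and XVIII, belongs to the basement membrane around each fibre and capillary. Types II, IX, X and XI are known from cartilage, although type XI chains also occur in tendon, and the fibril-associated collagens (FACITs) sit on the surface of fibrils.

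Cryab was between 412 and 837 FPKM in the 6 libraries titled Flox and between 0.845 and 1.75 FPKM in the 6 titled KO, and Hspb2 separated them likewise. The genotype field contradicts the title in 6 libraries, so the titles were used. Several libraries stood apart in genes of other cell types. Summed B and T cell markers reached 60.1 to 71.4 FPKM in WT chow replicate 2 and KO chow replicates 1 and 3, and at most 4.69 FPKM elsewhere. The listed keratins (Krt5, Krt14, Krt15, Krt25, Krt27 and Krt71) summed to 36.0 FPKM in WT high-fat replicate 2 and to at most 0.048 FPKM elsewhere. WT high-fat replicate 3 had the highest sum of bone markers, at 55.7 FPKM. WT high-fat replicate 1 had the lowest sums of fat cell markers (3.43 FPKM) and of fibroblast markers (494 FPKM). Muscle fibre markers such as Ckm summed to at least 33187 FPKM in every library. Myh4, a myosin of fast fibres, was listed at 0 in all 12 libraries and Acta1, skeletal actin, in 2, so a value of 0 in these files does not show that a gene was silent.

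Col3a1 and the chains of type I were by far the most abundant collagens. Averaged over the 12 libraries, Col3a1 stood at 150.2 FPKM, Col1a2 at 149 and Col1a1 at 103, and together they made 49.9 to 68.8% of the summed collagen FPKM. Col6a1 (42.2 FPKM), Col6a2 (39.3) and Col6a3 (11.7), the chains of type VI, came next with the basement membrane chains Col4a1 (36.6), Col4a2 (28.6) and Col15a1 (15.2). Col5a2, a chain of the type V collagen that sets fibril diameter, averaged 11.8 FPKM, close to Col6a3, and no other member reached a mean of 10 FPKM. The order of Col3a1 and Col1a2 depended on the group: the ratio of Col1a2 to Col3a1 was 0.688 to 0.9985 in the 9 libraries outside the WT high-fat group and 1.28 to 3.10 within it.

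**Figure D1:**
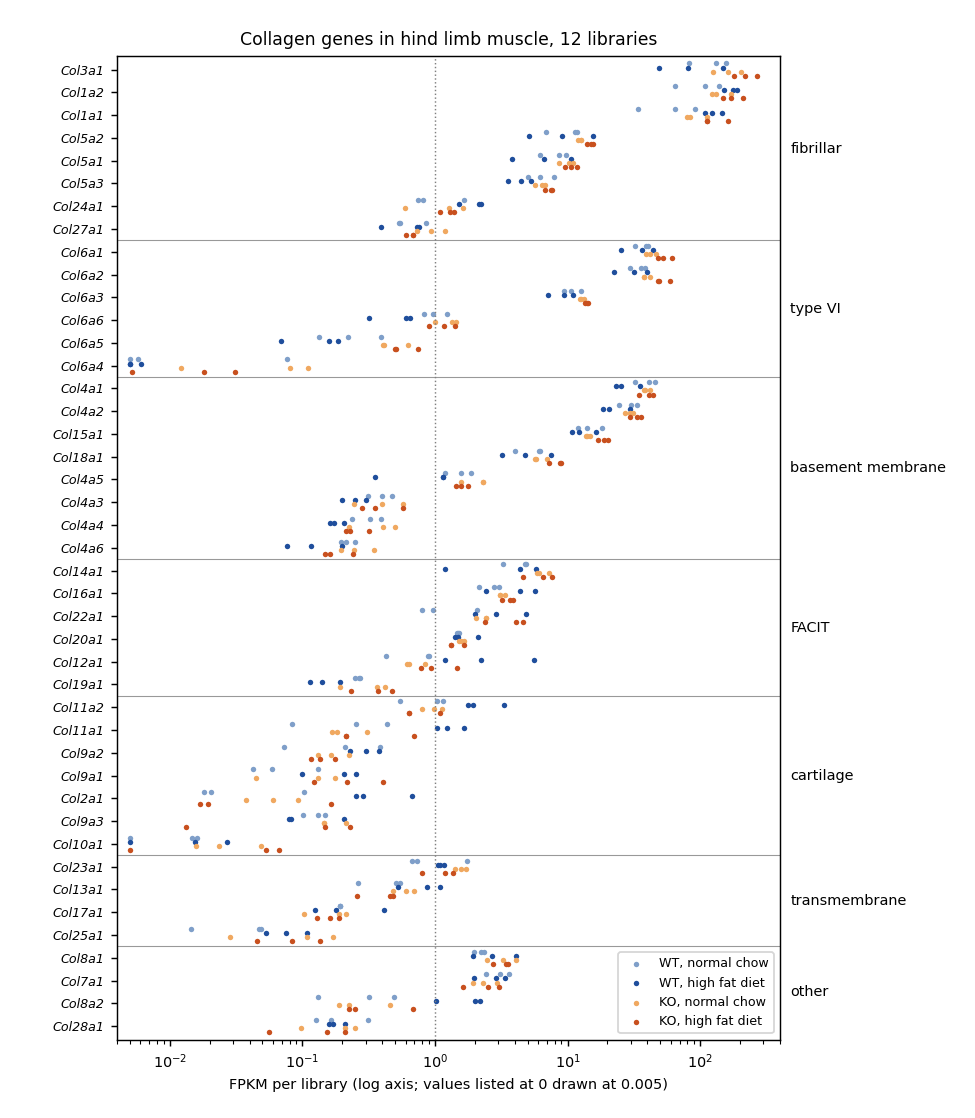
FPKM (log axis) of the 43 collagen genes, by structural class and then by mean level; each point is 1 library, coloured by group, and the dotted line marks 1 FPKM. The 3 fibrillar genes at the top stand well above the rest, while the cartilage genes Col2a1, Col9a1 and Col10a1 stay under 1 FPKM in all 12 libraries.

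Of the 43 genes, 27 reached 1 FPKM in at least 3 of the 12 libraries and were tested, and 16 did not. The tested genes were 7 of 8 fibrillar collagens, 4 of 6 type VI chains, 5 of 8 basement membrane chains, 5 of 6 FACITs, 2 of 7 cartilage collagens, 1 of 4 transmembrane collagens and 3 of 4 others. Most cartilage collagens were close to absent. Col2a1, the chain of the main cartilage fibril, was 0.0203, 0.0181 and 0.102 FPKM in the WT chow group, 0.288, 0.253 and 0.673 in the WT high-fat group, 0.0927, 0.0602 and 0.0379 in the KO chow group and 0.166, 0.0169 and 0.0195 in the KO high-fat group, and Col10a1, made by hypertrophic chondrocytes, did not exceed 0.0669 FPKM in any library. The minor basement membrane chains Col4a3, Col4a4 and Col4a6, known from kidney and other specialised membranes, ranged from 0.0771 to 0.577 FPKM. Col13a1, a transmembrane collagen of the neuromuscular junction, ranged from 0.260 to 1.09 FPKM, and Col19a1, Col6a4, Col6a5, Col9a2, Col9a3, Col17a1, Col25a1 and Col28a1 never reached 1 FPKM. Col27a1 did so in 1 library only.

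The abundant chains of types I, IV and VI varied less against their partner chains than in level. Such a ratio was not taken for the low type XI chains. The ratio of Col4a2 to Col4a1, which pair in the common type IV molecule, was 0.706 to 0.856 over the 12 libraries, although Col4a1 itself ranged from 23.1 to 45.3 FPKM. Over both genotypes this ratio was 0.706 to 0.789 on chow and 0.799 to 0.856 on high fat diet, a split that was not tested. The ratio of Col6a2 to Col6a1 was 0.870 to 1.01, that of Col6a3 to Col6a1 was 0.233 to 0.323, and that of Col1a2 to Col1a1 was 1.23 to 1.91. Col4a1 (chr8:11198423-11312826, minus strand) and Col4a2 (chr8:11312805-11449287, plus strand, both in mm10 with GENCODE gene bounds) lie head to head, as the windows below show. Types I and III, by contrast, parted in 1 group, and the windows of Col1a2 and Col3a1 are given for comparison. RefSeq windows of 250 bases before and 50 after the start site (GRCm38.p6) were at hand for 35 of the 43 genes. Capitals mark 3 short promoter motifs found on either strand, the TATA box (TATAAA), the CCAAT box (CCAAT) and the GC box (GGGCGG), which occur in 13.6, 37.4 and 35.7% of all 32851 windows of this length.
Col4a1 promoter window, chr8:11312777-11313076, minus strand: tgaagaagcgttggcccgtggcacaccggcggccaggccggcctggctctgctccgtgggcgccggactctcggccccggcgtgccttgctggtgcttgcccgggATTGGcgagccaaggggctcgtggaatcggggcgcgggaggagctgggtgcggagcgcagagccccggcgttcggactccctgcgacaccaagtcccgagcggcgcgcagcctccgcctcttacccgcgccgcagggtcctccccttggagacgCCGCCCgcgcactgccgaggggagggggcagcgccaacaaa
Col4a2 promoter window, chr8:11312555-11312854, plus strand: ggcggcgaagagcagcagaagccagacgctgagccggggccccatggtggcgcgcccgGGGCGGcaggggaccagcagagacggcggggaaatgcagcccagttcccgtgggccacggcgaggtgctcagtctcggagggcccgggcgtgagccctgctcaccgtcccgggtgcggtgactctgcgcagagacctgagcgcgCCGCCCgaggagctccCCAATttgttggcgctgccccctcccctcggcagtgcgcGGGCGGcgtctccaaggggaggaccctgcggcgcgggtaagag
Col1a2 promoter window, chr6:4505368-4505667, plus strand: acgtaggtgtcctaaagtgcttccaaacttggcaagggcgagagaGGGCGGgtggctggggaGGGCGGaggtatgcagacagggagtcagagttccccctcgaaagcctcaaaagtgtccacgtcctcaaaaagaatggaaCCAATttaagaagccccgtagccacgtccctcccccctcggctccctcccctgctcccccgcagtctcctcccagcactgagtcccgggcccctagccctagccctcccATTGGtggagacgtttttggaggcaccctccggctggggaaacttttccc
Col3a1 promoter window, chr1:45311288-45311587, plus strand: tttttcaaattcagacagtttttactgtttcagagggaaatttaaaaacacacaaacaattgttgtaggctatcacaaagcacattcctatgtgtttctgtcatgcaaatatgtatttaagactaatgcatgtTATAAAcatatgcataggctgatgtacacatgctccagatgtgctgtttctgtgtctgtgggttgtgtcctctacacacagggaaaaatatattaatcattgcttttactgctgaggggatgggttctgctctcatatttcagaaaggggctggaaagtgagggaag
The windows of Col4a1 and Col4a2 share 78 bases and their start sites are 21 bases apart. Both are rich in G and C, at 74.0 and 73.7%, against 61.0% for Col1a2, 37.7% for Col3a1 and a median of 52.7% over all windows. The Col3a1 window holds the TATA letters once, well before the start site, and neither of the other motifs, whereas the Col1a2 window holds the CCAAT and GC letters 2 times each and no TATA letters. The Col1a2 window is set on a RefSeq start site at chr6:4505618, inside GENCODE gene bounds that begin at 4504814. These letters therefore do not show a difference in promoter type. A match of letters is not a site of binding.

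No collagen gene passed an adjusted p of 0.05 (limma, Benjamini-Hochberg over 11945 genes) in any of the comparisons made: diet within each genotype, genotype on each diet, each factor averaged over the other, and their interaction. What follows gives the sizes, the errors and the genes with an unadjusted p under 0.05, which are not calls. Log2 fold changes are differences of mean log2(FPKM + 1), given ± SE, with 3 mice a group, and they understate the change of genes near or under 1 FPKM.

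In WT mice, the high fat group lay above the chow group for some classes of collagen and below it for others. Mean levels of type I and type XI chains were higher on high fat diet, with those of Col8a2 and of FACITs such as Col12a1 and Col22a1, and those of the main basement membrane chains were lower. Unadjusted p was under 0.05 for 14 of 27 genes, 9 higher and 5 lower, and this share can be set against 8.12% of all tested genes, or 4.42% higher and 3.7% lower. The median over the 27 genes was -0.092 on the log2 scale and that of all tested genes -0.013, with 12 collagens above 0 and 15 below. Of all tested genes, 0.1% passed the adjusted threshold.

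Col1a1, the chain present 2 times in each type I molecule, was 33.9, 64.4 and 90.9 FPKM in the WT chow group, 123, 108 and 146 in the WT high-fat group, 113, 84.4 and 79.6 in the KO chow group and 112, 162 and 114 in the KO high-fat group. The lowest WT mouse on high fat diet exceeded the highest WT mouse on chow, and the KO mice overlapped both WT groups. The difference by diet in WT mice was 1.08 ± 0.30 (adjusted p = 0.24). Col1a2, its partner chain, was 64.8, 108 and 139 FPKM in the WT chow group, 151, 177 and 191 in the WT high-fat group, 169.7, 131 and 124 in the KO chow group and 172, 212 and 149 in the KO high-fat group and differed by 0.79 ± 0.25 (adjusted p = 0.31). Here too the WT groups did not overlap. Both differences were smaller without WT chow replicate 1, which held the lowest type I values, at 0.70 for Col1a1 and 0.48 for Col1a2.

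Col3a1, the fibril chain mixed with type I in the sheaths of muscle, did not follow type I. Its values were 83.0, 131 and 156 FPKM in the WT chow group, 48.7, 80.7 and 149 in the WT high-fat group, 204, 162 and 124 in the KO chow group and 180.1, 268 and 217 in the KO high-fat group. The difference by diet in WT mice was -0.51 ± 0.36 (95% interval -1.31 to 0.30; adjusted p = 0.80), and the WT groups overlapped. The ratio of Col1a1 to Col3a1 was 0.408, 0.493 and 0.582 in the WT chow group, 2.52, 1.34 and 0.984 in the WT high-fat group, 0.553, 0.522 and 0.642 in the KO chow group and 0.622, 0.606 and 0.523 in the KO high-fat group. The 3 WT mice on high fat diet therefore had more Col1a1 per Col3a1 than the other 9 mice, with the ratio falling short of 1 in replicate 3. This ratio was chosen after the values were seen and is given with no test.

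**Figure D2:**
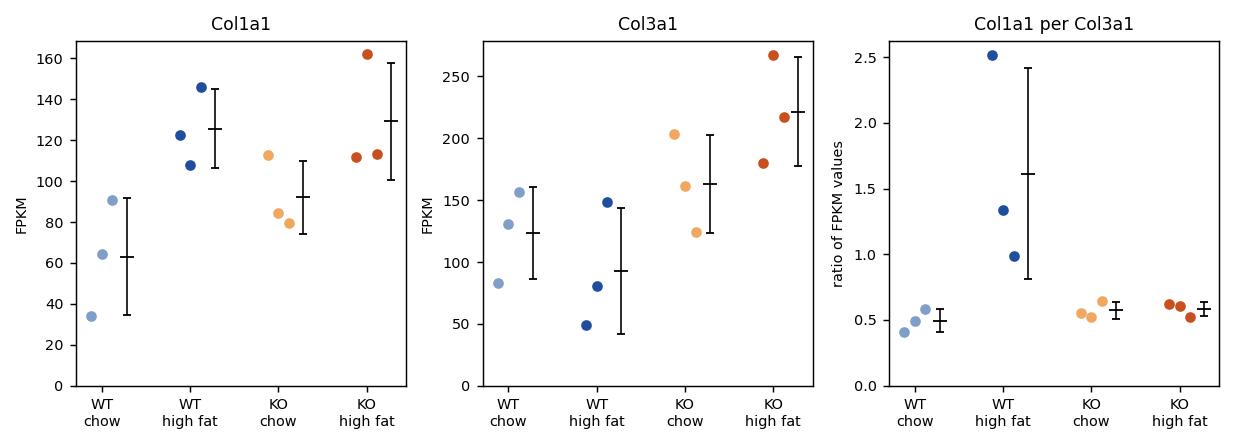
FPKM of Col1a1 and Col3a1 and the ratio of the 2 values in each library (points), with the group mean and SD (black; n = 3). The ratio lies between 0.984 and 2.52 in the WT high-fat group and between 0.408 and 0.642 in the other 9 mice.

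Type XI chains, which seed thin fibrils, stood apart in the same 3 mice. Col11a1 was 0.0831, 0.436 and 0.252 FPKM in the WT chow group, 1.04, 1.23 and 1.66 in the WT high-fat group, 0.168, 0.182 and 0.308 in the KO chow group and 0.692, 0.212 and 0.214 in the KO high-fat group, and differed by 0.88 ± 0.17 with diet in WT mice (adjusted p = 0.097). Col11a2 was 0.543, 1.14 and 1.03 FPKM in the WT chow group, 1.92, 3.32 and 1.76 in the WT high-fat group, 0.983, 0.7996 and 1.12 in the KO chow group and 1.09, 0.642 and 0.642 in the KO high-fat group, with a difference of 0.79 ± 0.19 (adjusted p = 0.15). For both chains every WT mouse on high fat diet was above every other mouse. Col8a2, a short-chain network collagen of vessels and the cornea, was 0.131, 0.317 and 0.491 FPKM in the WT chow group, 1.01, 2.01 and 2.17 in the WT high-fat group, 0.225, 0.188 and 0.459 in the KO chow group and 0.679, 0.248 and 0.225 in the KO high-fat group and had the lowest adjusted p of the family in this comparison (1.04 ± 0.20, adjusted p = 0.092). Col11a1 and Col8a2 reached 1 FPKM in 3 libraries, all from WT mice on high fat diet, and Col12a1 in those 3 and 1 other. These 3 genes were therefore tested because of the group in which they are high, and their differences add nothing to the count. Among the 18 members at 1 FPKM or more in every library, 6 had an unadjusted p under 0.05 in the fit restricted to such genes, against 8.03% of the 10292 genes in that fit.

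Among the FACITs, Col12a1, which coats fibrils of tendon and muscle sheaths, was 0.424, 0.899 and 0.880 FPKM on chow and 1.19, 2.21 and 5.55 on high fat diet in WT mice (1.06 ± 0.32, adjusted p = 0.27). Col22a1, a collagen of the myotendinous junction, was 0.801, 0.974 and 2.09 FPKM on chow and 2.01, 4.89 and 2.90 on high fat diet in the same mice (0.89 ± 0.27, adjusted p = 0.30). The Col12a1 groups did not overlap, while those of Col22a1 did, through WT chow replicate 3. Col16a1 (0.45 ± 0.20) and the minor fibrillar chain Col24a1 (0.53 ± 0.21) also had an unadjusted p under 0.05.

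Basement membrane chains showed the opposite order in WT mice. Col4a1 was 32.1, 41.3 and 45.3 FPKM on chow and 23.1, 25.2 and 35.4 on high fat diet (-0.50 ± 0.17, adjusted p = 0.36). Col4a2 differed by -0.37 ± 0.17 and the minor chain Col4a5 by -0.46 ± 0.19. All 5 tested basement membrane chains and all 4 tested type VI chains had a lower mean on high fat diet, against 53.6% of all tested genes, but p was under 0.05 unadjusted only for those 3 and for Col6a6 (-0.40 ± 0.14), an alternative type VI chain. Col5a3, a type V chain, was lower as well (-0.43 ± 0.14). As a share of the summed collagen FPKM, basement membrane chains were 20.5, 17.6 and 16.7% in WT mice on chow and between 11.5 and 12.2% on high fat diet.

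Tendon markers moved with these differences. The summed FPKM of Scx, Tnmd, Mkx, Thbs4, Chad and Fmod was 37.8, 71.9 and 98.3 in the WT chow group, 249, 421 and 322 in the WT high-fat group, 42.1, 37.4 and 96.2 in the KO chow group and 179.9, 82.3 and 71.3 in the KO high-fat group. All 5 tested genes of this list were higher with diet in WT mice at an unadjusted p under 0.05, against 4.42% of all tested genes (lowest adjusted p = 0.080). The list was chosen with earlier results of these data known. The 3 WT mice on high fat diet are thus the 3 highest libraries for tendon markers as for type XI collagen. In bulk tissue a larger amount of tendon in the piece and more tendon RNA per cell cannot be told apart, and the part of tendon in the collagen values was not tested. Comp, a matrix protein of cartilage and tendon, differed by 2.59 ± 0.61, whereas the other 7 of 8 genes of the cartilage list stayed under 1 FPKM in every library and the defining genes Acan, Matn1 and Ucma were at or near 0, with at most 0.428 FPKM in any library. WT high-fat replicate 1, lowest in fibroblast markers, was also the lowest of the 12 libraries for 15 of the 27 tested collagens, among them Col3a1, Col14a1 and every tested type V, type VI and basement membrane chain. Without it the median difference of the 27 genes by diet in WT mice turned from -0.092 to 0.12. In that fit 9 genes had an unadjusted p under 0.05, against 5.89% of all tested genes, and the limit from the filter holds there too.

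**Figure D3:**
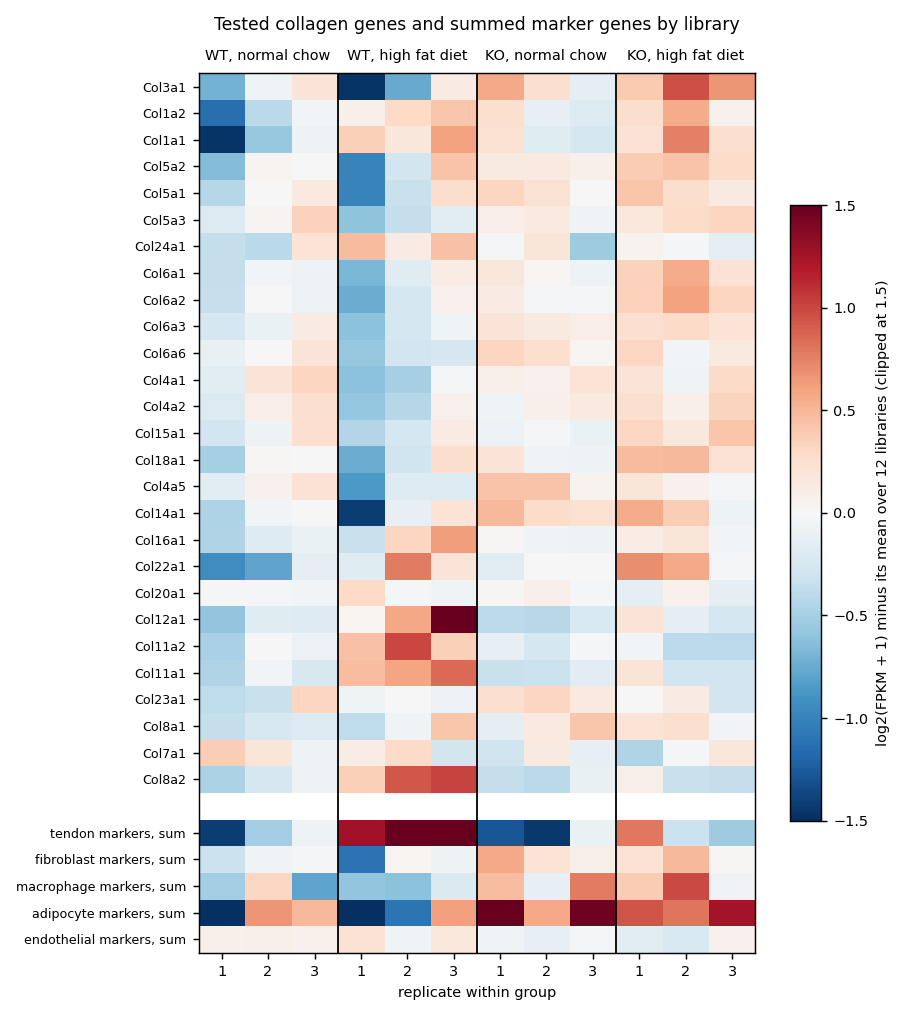
log2(FPKM + 1) of the 27 tested collagen genes, by class, and of the summed markers of 5 cell types (bottom rows), each minus its mean over the 12 libraries; columns are the replicates of each group and colours are clipped at 1.5. The WT high-fat columns are white to red for Col1a1, Col1a2, Col11a1, Col11a2, Col12a1 and Col8a2 and dark red for tendon markers, and replicate 1 of that group is blue for type III, V, VI and IV chains and for fibroblast markers.

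In KO mice the mean was higher on high fat diet for 19 of the 27 collagens, against 56% of all tested genes. Unadjusted p was under 0.05 for 2 of 27 genes, both higher, against 11.3% of all tested genes (6.56% higher and 4.73% lower). Fitted with only the KO groups, 7 of the 27 had such a p, against 10.8% of all tested genes, so the share was below the background in the first fit and above it in the second. The first 2 were Col15a1, a proteoglycan-like basement membrane collagen (14.1, 14.8 and 13.8 FPKM on chow and 18.8, 16.9 and 20.3 on high fat diet, 0.37 ± 0.16, adjusted p = 0.44), and Col6a2 (41.6, 37.5 and 37.9 and 49.0, 58.8 and 48.2 FPKM, 0.40 ± 0.18, adjusted p = 0.44). The groups did not overlap for either gene. All 7 tested fibrillar genes had a higher mean on high fat diet, again against 56% of all tested genes, with 0.48 ± 0.30 for Col1a1, 0.32 ± 0.25 for Col1a2 and 0.45 ± 0.36 for Col3a1. Type XI chains differed by 0.15 ± 0.17 for Col11a1 (95% interval -0.23 to 0.54) and -0.14 ± 0.19 for Col11a2 (95% interval -0.56 to 0.28). Of the 3 libraries rich in B and T cell markers, 2 are KO mice on chow. A fit without them leaves KO chow replicate 2 alone in its group, so no count is given for it. The count was 0 without KO chow replicate 1, 2 or 3, against 5.89, 20.8 and 5.61% of all tested genes. It was also 0 without KO high-fat replicate 1, against 11.5%. It was 1 without KO high-fat replicate 2 or 3 or WT high-fat replicate 2, against 7.73, 7.66 and 9.97%.

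On normal chow, most collagens had a slightly higher mean in KO than in WT mice. No gene of the 27 had an unadjusted p under 0.05 in limma, although 16.7% of all tested genes did (6.73% higher and 9.93% lower in KO mice) and 0.0586% passed the adjusted threshold. The mean was higher in KO mice for 21 of the 27 genes, against 45% of all tested genes. The groups did not overlap for 5 of them, Col5a2, Col8a1, Col14a1, Col16a1 and Col20a1, all higher in KO mice, against 8.15% of all tested genes. The largest difference was that of Col1a1, at 0.63 ± 0.30 (95% interval -0.03 to 1.29), and Col3a1 differed by 0.42 ± 0.36 (95% interval -0.38 to 1.22). For Col4a1 and Col4a2 the intervals of the difference were -0.37 to 0.36 and -0.36 to 0.37. Without WT chow replicate 3, 5 genes had an unadjusted p under 0.05, against 11.9% of all tested genes in that fit. Without WT high-fat replicate 1 there were 4, against 19.2%, so 4 of 27 was below the background. Without any of 4 other libraries there was 1. Over the fits that each left out 1 mouse, the share of all tested genes was 5.15 to 29.8%. A count of 1 of 27 was therefore below the background in each.

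On high fat diet, most collagens of muscle sheaths and basement membranes were higher in KO than in WT mice. Type XI chains, Col8a2 and Col12a1, all high in WT mice on that diet, were lower in KO mice, whereas type I chains and Col22a1 were not. Unadjusted p was under 0.05 for 17 of 27 genes, 13 higher and 4 lower in KO mice, against 9.79% higher and 6.45% lower among all tested genes (16.2% together). Of the 4 lower genes, Col8a2, Col11a1 and Col12a1 were tested only because of the WT high-fat group and add nothing to the count. Of the 13 higher genes, Col6a6 reached 1 FPKM among WT mice in chow replicate 3 alone. It was tested only because of the KO mice, in which it is high, and adds nothing either. Among the 18 members at 1 FPKM or more in every library, 12 had an unadjusted p under 0.05, against 16.1% of all genes in that fit. No collagen passed the adjusted threshold, which 0.109% of all genes did. The median over the 27 genes was 0.49 and that of all tested genes -0.011. This comparison and that of diet in WT mice share the 3 WT mice on high fat diet, so the values of 1 are not independent of the other.

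Col3a1 had the largest difference among the genes higher in KO mice. Its values on high fat diet were 48.7, 80.7 and 149 FPKM in WT and 180.1, 268 and 217 FPKM in KO mice, without overlap, a difference of 1.37 ± 0.36 (adjusted p = 0.11). Type I chains showed no such difference, at 0.03 ± 0.30 for Col1a1 (95% interval -0.63 to 0.69) and 0.03 ± 0.25 for Col1a2 (95% interval -0.51 to 0.57). The type V chains were higher in KO mice, with 0.63 ± 0.26 for Col5a1, 0.64 ± 0.29 for Col5a2 and 0.62 ± 0.14 for Col5a3, of which Col5a3 had the lowest adjusted p, 0.089.

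All 4 tested type VI chains were higher in KO mice on high fat diet and none overlapped between genotypes, against 13% of all tested genes that were higher without overlap. Col6a1 was 25.3, 36.4 and 44.4 FPKM in WT and 52.6, 60.9 and 48.0 in KO mice (0.62 ± 0.18, adjusted p = 0.13). Col6a2 was 22.5, 31.7 and 40.0 and 49.0, 58.8 and 48.2 FPKM (0.74 ± 0.18, adjusted p = 0.093). Col6a3, the chain with the longest non-helical end, was 7.14, 9.38 and 11.0 and 13.9, 14.2 and 13.4 FPKM (0.56 ± 0.13, adjusted p = 0.092). Loss of any of these chains is a known cause of congenital muscular dystrophy. Col6a6 differed by 0.51 ± 0.14, and with its limit from the filter it adds nothing to the 4.

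All 5 tested basement membrane chains were higher in KO mice as well. Col4a1 was 23.1, 25.2 and 35.4 FPKM in WT and 41.3, 34.6 and 44.1 FPKM in KO mice (0.52 ± 0.17, adjusted p = 0.16), and its groups overlapped through WT high-fat replicate 3. Col4a2 (0.53 ± 0.17), Col4a5 (0.50 ± 0.19) and Col15a1 (0.49 ± 0.16) did not overlap. Col18a1, the source of endostatin, differed by 0.65 ± 0.22 with overlap. Within KO mice Col4a1 was 38.2, 37.6 and 41.5 FPKM on chow, which overlaps the values on high fat diet. Endothelial markers summed to 130.5, 107 and 125 FPKM in WT and 99.2, 95.1 and 117 FPKM in KO mice on high fat diet. Their part in the type IV differences was not tested.

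The 4 genes lower in KO mice on high fat diet were Col8a2 (-0.97 ± 0.20, adjusted p = 0.069), Col11a2 (-0.88 ± 0.19, adjusted p = 0.078), Col11a1 (-0.76 ± 0.17, adjusted p = 0.087) and Col12a1 (-0.81 ± 0.32, adjusted p = 0.23). Tendon markers were lower in KO mice on this diet too, in all 3 against all 3 mice. Fat cell markers summed to 3.43, 90.3 and 298 FPKM in WT and 374, 341 and 464 FPKM in KO mice, without overlap. All 5 genes of that list were higher in KO mice at an unadjusted p under 0.05, against 9.79% of all tested genes (median 2.74, lowest adjusted p = 0.17). Fibroblast markers summed to 494, 1091 and 1011 FPKM in WT and 1241, 1496 and 1088 in KO mice, and macrophage markers to 109.6, 108 and 142 and 215, 329 and 159 FPKM. Their part in the collagen differences was not tested.

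Single WT libraries weighed on this comparison. Without WT high-fat replicate 1 the median over the 27 genes fell from 0.49 to 0.24 and the Col3a1 difference was 0.99. In that fit 14 genes had an unadjusted p under 0.05, against 10.1% of all tested genes. Without WT high-fat replicate 3, which had the highest Col3a1, Col5a2 and Col6a2 of its group, Col3a1 (1.79, adjusted p = 0.039), Col6a2 (0.93, adjusted p = 0.037) and Col6a3 (0.69, adjusted p = 0.048) passed the adjusted threshold, as did 0.686% of all tested genes in that fit.

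**Figure D4:**
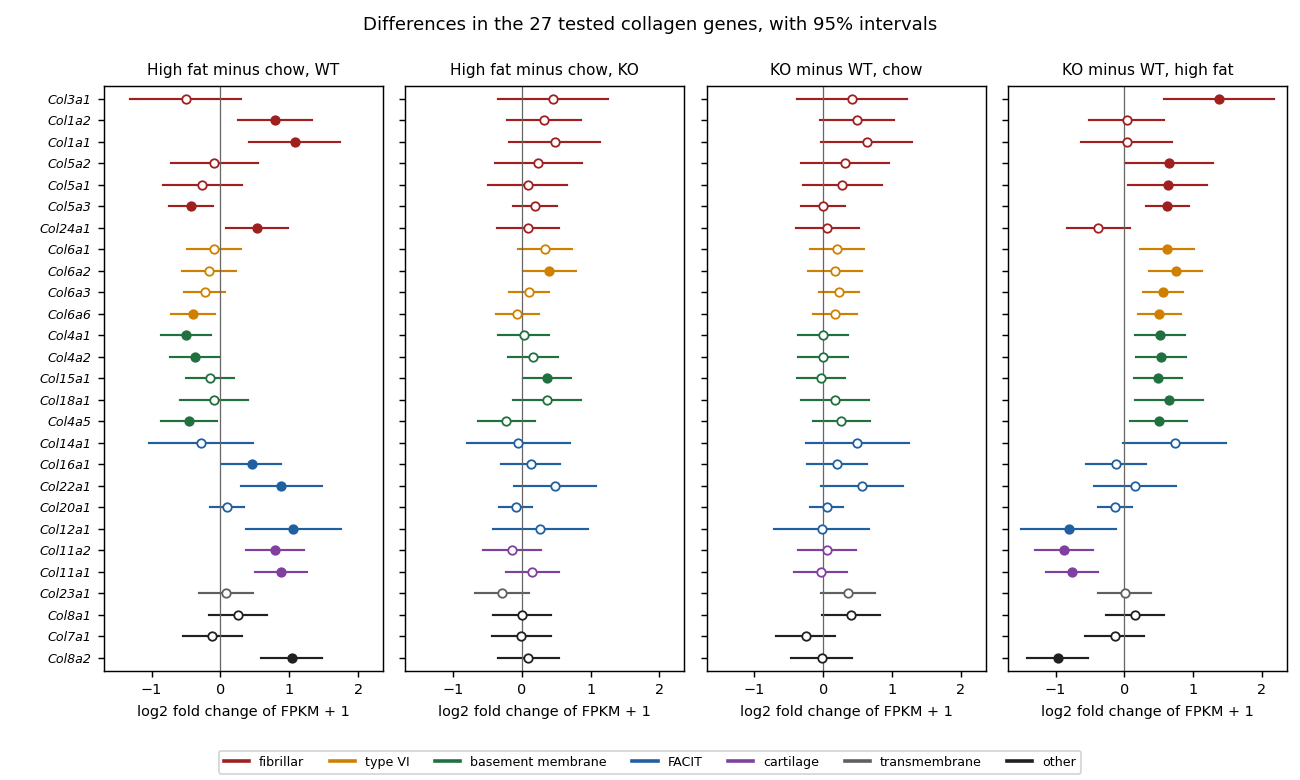
log2 fold change of FPKM + 1 with its 95% interval (limma, not adjusted) for the 27 tested collagen genes in 4 comparisons; colour gives the structural class and filled points an unadjusted p under 0.05. No gene passed an adjusted p of 0.05; 14, 2, 0 and 17 points are filled from left to right, and the outer panels share the WT high-fat mice.

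Averaged over both diets, unadjusted p was under 0.05 for 15 collagens, 12 of them higher and 3 lower without the 2 proteins, against 26.5% of all tested genes, 13.1% higher and 13.4% lower, and 0.862% of all genes but no collagen passed the adjusted threshold. The type VI chains came nearest, with 0.40 ± 0.09 for Col6a3 (adjusted p = 0.059) and 0.46 ± 0.13 for Col6a2 (adjusted p = 0.073), followed by Col3a1 (0.90 ± 0.26, adjusted p = 0.079). The genes lower in KO mice were Col11a2 (-0.41 ± 0.13) and, with the same limit from the filter, Col8a2 (-0.49 ± 0.14) and Col11a1 (-0.40 ± 0.12). Col14a1, a FACIT of muscle sheaths, differed by 0.61 ± 0.24. Of the 12 higher genes, Col6a6 was tested only because of the KO mice and adds nothing to the count. Without WT high-fat replicate 3, 7 collagens passed the adjusted threshold, namely Col3a1, Col5a1, Col5a2, Col6a1, Col6a2, Col6a3 and Col18a1, and without KO chow replicate 2 Col6a3 alone did (adjusted p = 0.045). Calls over all tested genes were more frequent in these fits too, at 4.11% and 10.1%, so the 1 of 27 in the latter was below the background.

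Averaged over genotypes, diet gave 7 higher and 2 lower collagens at an unadjusted p under 0.05, against 13.9% of all tested genes (7.96% and 5.94%), and none passed the adjusted threshold. Of the 7 higher genes, Col8a2, Col11a1 and Col12a1 were tested only because of the WT high-fat group and add nothing to the count. Col11a1 had the lowest adjusted p, 0.16 (0.52 ± 0.12), and Col1a1 differed by 0.78 ± 0.21. The interaction tests directly whether the diet difference was unlike in the genotypes. It gave 5 higher and 3 lower collagens at an unadjusted p under 0.05, against 6.25% of all tested genes (3.55% and 2.7%), with a lowest adjusted p of 0.59. Of the 3 lower genes, Col8a2 and Col11a1 were tested only because of the WT high-fat group, so their terms add nothing to the count. The negative terms were those of Col11a2 (-0.93 ± 0.27), Col8a2 (-0.95 ± 0.29) and Col11a1 (-0.72 ± 0.24), and the positive terms those of Col4a1 (0.52 ± 0.24), Col4a2 (0.53 ± 0.23), Col5a3, Col6a2 and Col15a1. The difference in response between WT and KO mice was therefore not shown for any collagen. Without WT high-fat replicate 3, 14 genes had an unadjusted p under 0.05, against 6.04% of all tested genes. Without WT chow replicate 2, WT high-fat replicate 2 or KO high-fat replicate 1 there were 4, against 8.58, 5.84 and 5.63%. Without KO chow replicate 1 or 2 or KO high-fat replicate 3 there were 5, against 4.95, 10.9 and 5.22%. Without WT high-fat replicate 1 the median interaction of the 27 genes turned from 0.23 to -0.027.

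The genes that make, process and bind collagens were followed through lists of their own. Collagen maturation needs prolyl and lysyl hydroxylases and the chaperone Serpinh1 in the endoplasmic reticulum, propeptide cleavage by Bmp1 and Adamts2 outside the cell, and crosslinking by the lysyl oxidases. Of 22 tested genes of synthesis and folding, none passed the adjusted threshold in any comparison, and with an unadjusted p under 0.05 there were 6 higher and 1 lower in KO mice fed the high fat diet, against 9.79% higher and 6.45% lower among all tested genes. Serpinh1 differed by 0.42 ± 0.18 and P4hb, a subunit of the prolyl hydroxylase, by 0.20 ± 0.08. Leprel4, a component of the lysyl hydroxylation complex, was higher in WT mice on high fat diet than on chow (0.52 ± 0.11, adjusted p = 0.11).

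Loxl1, a lysyl oxidase best known for crosslinking elastin, was the 1 gene of these lists to pass the adjusted threshold, and it did so for genotype averaged over diets. It was 10.04, 11.7 and 10.6 FPKM in the WT chow group, 4.97, 8.48 and 10.2 in the WT high-fat group, 16.7, 14.9 and 14.8 in the KO chow group and 15.5, 21.8 and 13.4 in the KO high-fat group. Every KO mouse was above every WT mouse, and the averaged difference was 0.76 ± 0.15 (adjusted p = 0.0498). That call sits at the threshold: the adjusted p was 0.035 to 0.13 over the fits that left out 1 mouse, passing in 4 of 12, and 0.35 without the 3 libraries rich in B and T cell markers. Of the 9 tested genes of processing and crosslinking, 4 had a higher mean in KO mice fed the high fat diet with p under 0.05 before adjustment (9.79% of all tested genes), among them Adamts2, which trims the ends of types I and III (0.83 ± 0.24), and Pcolce2, an enhancer of such cleavage (1.16 ± 0.33).

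Of the 9 tested collagen-binding proteoglycans, Kera (2.56 ± 0.58) and Fmod (2.97 ± 0.84), both known from tendon, were higher with high fat diet in WT mice at an unadjusted p under 0.05, against 4.42% of all tested genes, and Fmod is also on the tendon list. Among the 10 tested partners of basement membranes, Nid1 (-0.52 ± 0.20), Nid2 (-0.42 ± 0.14) and Lamb1 (-0.43 ± 0.14) were lower with high fat diet in WT mice, the direction of the type IV chains, and 5 were higher and 1 lower in KO than WT mice on high fat diet, all at an unadjusted p under 0.05 (all tested genes, 3.7% lower with diet, and 9.79% higher and 6.45% lower in KO mice). Nid1 and Nid2 encode nidogens, which join laminin to type IV collagen. Of the 9 tested genes of collagen degradation, 5 were higher and 1 lower in KO mice on high fat diet before adjustment, against the same 9.79% and 6.45% of all tested genes, with the stromelysin Mmp3 at 0.0558, 1.30 and 1.91 FPKM in WT and 4.21, 12.3 and 5.65 in KO mice (2.01 ± 0.44, adjusted p = 0.083). Of the 6 tested collagen receptors, Itgb1, the shared β1 integrin chain, was higher in KO mice averaged over diets (0.34 ± 0.08, adjusted p = 0.059), and Ddr1, a receptor kinase that binds collagen, differed by 0.34 ± 0.13 on high fat diet.

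The profibrotic signals did not share 1 direction. Of 10 tested genes, 3 were higher with high fat diet in WT mice at an unadjusted p under 0.05, against 4.42% of all tested genes, the growth factors Tgfb2 (0.41 ± 0.14) and Tgfb3 (0.40 ± 0.14) and the matricellular gene Ctgf (1.07 ± 0.38). Smad3, which carries the TGF-β signal to the nucleus, and Smad7, which inhibits it, were both lower in KO mice averaged over diets, at -0.56 ± 0.12 (adjusted p = 0.056) and -0.36 ± 0.08 (adjusted p = 0.056). Tgfb1 differed by 0.45 ± 0.19 in the same comparison.

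Members under the filter were read from a fit of all 18589 genes with any value. Col6a5, an alternative type VI chain, was 0.132, 0.222 and 0.393 FPKM in the WT chow group, 0.0689, 0.185 and 0.158 in the WT high-fat group, 0.630, 0.412 and 0.403 in the KO chow group and 0.499, 0.740 and 0.507 in the KO high-fat group. All KO mice were above all WT mice, with an averaged difference of 0.36 ± 0.06 (adjusted p = 0.067). Col2a1 differed by 0.41 ± 0.10 with diet in WT mice (adjusted p = 0.20), through levels of 0.288, 0.253 and 0.673 FPKM. On high fat diet Col13a1 was lower in KO mice (-0.38 ± 0.12, adjusted p = 0.22) and Col19a1 higher (0.24 ± 0.07, adjusted p = 0.19). All of these levels are near or under 1 FPKM, where the number of fragments behind a value is unknown.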

How the data were processed

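RNA of 12 hind limb muscles was sequenced as 100-bp paired-end reads from TruSeq RNA libraries. The FPKM values were deposited by the authors, per library, and the processing notes name TopHat2 2.0.8b, Cuffdiff 2.1.1 and the mm10 build. No read counts were used and total depth is unknown. Ratios of low values between libraries clustered at 1 value per pair, as steps of single fragments do. Read as relative depth, they put the deepest library at 1.36 times the shallowest. FPKM summed to between 484182 and 691621 per library without Mir324, which alone was listed at 10172200 FPKM in 1 library.

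Genes with FPKM of at least 1 in at least 3 libraries (11945) were fitted together in limma 3.58.1 (R 4.3.3) as log2(FPKM + 1) with 4 group means and a variance trend. P-values are two-sided, with Benjamini-Hochberg adjustment over these genes and a threshold of 0.05. The scripts were tested on simulated data. Groups follow the titles. Genes were named if they averaged at least 10 FPKM, had an unadjusted p under 0.05 or stood as class examples. The members and lists were chosen with earlier results of these data known. Gene bounds are from GENCODE M21, and promoter windows from RefSeq. Figures were drawn with Matplotlib 3.10.9.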

Additional observations from a re-analysis of the deposited data

How the results depend on the processing

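No median over the tested collagens changed sign under other pseudocounts, filters, scalings or models, and no collagen passed the adjusted threshold under any of them except with quantile normalization, where Col8a2, Col11a1 and Col11a2 did for genotype averaged over diets (3 genes instead of 0; 1.67% instead of 0.862% of all genes), of which Col8a2 and Col11a1 were tested only because of the WT high-fat group. The number of collagens with an unadjusted p under 0.05 moved more. With FPKM of at least 1 required in every library, 18 collagens were tested. That number was then 6 instead of 14 for diet in WT mice, against 8.03% of all tested genes. For the interaction it was 5 instead of 8, against 6.17%. For diet averaged over genotypes it was 2 instead of 9, against 13.5%, and for genotype on chow 1 instead of 0, against 17.3%. In these last comparisons the share of collagens was below the background. For diet in KO mice it was 1 instead of 2 with median-of-ratios size factors or quantile normalization, against 11 and 10.4% of all tested genes. With only the 2 groups compared it was 7, against 10.8%. For genotype on chow it was 1 with a pseudocount of 0.1, no filter, quantile normalization or the replicate block. The shares of all tested genes there were 16.5, 13.5, 17.5 and 12.8%. With only the 2 groups compared it was 3, against 13.9%, so the collagens were below the background in each. For the interaction it was 4 with quantile normalization, against 6.53%. Leaving out the 3 libraries rich in B and T cell markers was an alternative chosen after seeing the data. It leaves KO chow replicate 2 alone in its group, so no count is given for it. The median-of-ratios size factors lay between 0.998 and 1.01, so that scaling changed the values little.

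Over the 12 fits that each left out 1 mouse, that number was 9 to 16 for diet in WT mice, 0 to 3 for diet in KO mice, 0 to 5 for genotype on chow and 4 to 14 for the interaction. In the same order, the share of all tested genes was 5.89 to 9.33%, 5.61 to 20.8%, 5.15 to 29.8% and 4.46 to 10.9%. Collagens past the adjusted threshold numbered 0 to 3 for genotype on high fat diet and 0 to 7 for genotype averaged over diets. The median interaction ranged from -0.027 to 0.34. Same-numbered mice were not treated as pairs in the main fit. Deviations of such mice correlated at -0.50 to 0.17 on average, and in no comparison was every pair above 0.1. With 3 mice a group, these correlations cannot exclude a pairing. Loxl1, for genotype averaged over diets, had an adjusted p of 0.051 with a pseudocount of 0.1 or median-of-ratios size factors, 0.052 without a variance trend, 0.087 with no filter and 0.076 with the replicate block. The block on replicate number moved no other count of collagens by over 1.5 times.

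With 3 mice a group, an interval on the log2 scale spans about 1 unit or more for the abundant fibrillar genes, and differences within it were not detectable. FPKM files hold no fragment counts, so the precision of genes under 1 FPKM is unknown. Whether counting used strand is not given in the sources used here, and a value listed at 0 is not evidence of silence. Summed markers of tendon, fat, lymphoid cells and bone differed between libraries.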

Other observations

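Col4a1 per Pecam1, an endothelial surface gene, was 0.916, 1.07 and 1.27 in the WT chow group, 0.592, 0.794 and 0.911 in the WT high-fat group, 1.12, 1.23 and 1.18 in the KO chow group and 1.38, 1.14 and 1.25 in the KO high-fat group. The 3 WT high-fat mice had the 3 lowest values. Col1a1 per Col6a1 ranged from 1.06 to 4.85, and Col5a2 per Col5a1 only from 1.11 to 1.47. These ratios were chosen after the values were seen and carry no test. Emid2, the older symbol of the type XXVI collagen gene, does not match the naming rule and lay between 0.0940 and 0.498 FPKM.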
